A study of Arabidopsis thaliana with 12 samples.

Results

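The methionine sulfoxide reductase B (MSRB) family of Arabidopsis thaliana, MSRB1 to MSRB9, was followed across all arrays of a comparison of transgenic and wild type seedlings. The members are MSRB1 (AT1G53670), MSRB2 (AT4G21860), MSRB3 (AT4G04800), MSRB4 (AT4G04810), MSRB5 (AT4G04830), MSRB6 (AT4G04840), MSRB7 (AT4G21830), MSRB8 (AT4G21840) and MSRB9 (AT4G21850). The 9 were found by matching the locus name that each array probe carries, and all 9 were among the 25665 loci on the array and among the 20267 loci that were tested. The family was chosen by its measured differences, because earlier results of these data placed MSRB6 among the loci lowest in 35S:MYB106SRDX and MSRB8 among those highest in 35S:WIN1SRDX, each against wild type. The same arrays and contrasts therefore chose the members, and the differences of the members are given here as a description, with a standard error and with no p-value. Counts of members past the threshold of the fit over all loci are likewise a description.

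The groups were 35S:MYB106SRDX, 35S:WIN1SRDX and wild type, with 4 arrays each, and all seedlings were of the Columbia-0 ecotype, 3 weeks old, harvested whole from sucrose-containing MS agar. MYB106 and WIN1 are transcription factors that promote the formation of the plant cuticle. Each transgene drives 1 of them, fused to the SRDX repression domain, from the constitutive 35S promoter, which is active in most cell types; SRDX turns a factor into a repressor of its targets. The labels describe several seedlings taken from a plate that held many, and name neither the number of independent transgenic lines nor separate cultures, so the p-values below reflect only how much these samples vary, and that variation could be technical. In whole seedlings, fewer cells of a type and less RNA per cell cannot be told apart.

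Methionine in proteins is oxidised by reactive oxygen species to methionine sulfoxide, which exists as S and R diastereomers. Methionine sulfoxide reductases A (MSRA) reduce the S form and those of type B the R form, and the oxidised enzymes are in turn recycled by thioredoxins or glutaredoxins. In Arabidopsis, MSRB1 and MSRB2 are plastid enzymes, MSRB3 enters the secretory pathway and is known from cold acclimation, and the other members are mostly assigned to the cytosol; MSRB7 and MSRB8 are known for induction by oxidative stress.

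Levels are log2 values of the processed array intensity relative to the 75th percentile of the same array, so a level of 0 equals that percentile. Each member had 1 probe, and each probe lay well above background on all 12 arrays with no spot missing. Levels of different probes are not set against each other, because probes differ in how strongly they bind. On the arrays, 59.3% to 64.2% of the non-control spots lay well above background and none was saturated. The probe for MYB106 lay at 2.77 to 4.81 on the MYB106SRDX arrays and at -3.12 to -1.53 on the wild type arrays, and the probe for WIN1 lay at 5.39 to 5.86 on the WIN1SRDX arrays and at -9.13 to -6.33 on the wild type arrays, so the arrays of both lines read high for the factor in their labels.

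MSRB6 was lower in both lines and had the largest difference from wild type of any member in MYB106SRDX. Its level was -5.14, -3.73, -6.40 and -5.92 on MYB106SRDX replicates 1 to 4, -2.14, -3.13, -4.04 and -1.51 on WIN1SRDX replicates 1 to 4, and 1.83, 0.86, 2.26 and 1.86 on wild type replicates 1 to 4. Every array of both lines was below every wild type array, while the lowest WIN1SRDX array was below the highest MYB106SRDX array. The difference from wild type was -7.00 ± 0.64 (SE, n = 4 arrays a group) in MYB106SRDX, a 128-fold lower level, and -4.41 ± 0.64 in WIN1SRDX, a 21.2-fold lower level. Between the lines the difference was -2.60 ± 0.64 (MYB106SRDX minus WIN1SRDX), or -1.35 with the normexp background correction. As processed intensities, the probe read 20.6 to 132 in MYB106SRDX, 129 to 648 in WIN1SRDX and 3621 to 9661 in wild type. The MYB106SRDX readings lie close to the background limit: on MYB106SRDX replicate 3, where MSRB6 was at -6.40, the dimmest spot counted as well above background was at -6.89. Under normexp, which compresses dim signals, the difference from wild type was -5.34 in MYB106SRDX. Among the 20267 loci, MSRB6 ranked 43 from the lowest difference in MYB106SRDX and 61 from the lowest in WIN1SRDX.

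MSRB8 ran the other way and was higher in both lines. Its level was 1.50, 0.60, 1.12 and 1.92 on MYB106SRDX replicates 1 to 4, 1.90, 1.17, 1.07 and 2.57 on WIN1SRDX replicates 1 to 4, and -4.54, -6.35, -4.24 and -4.44 on wild type replicates 1 to 4. No array of either line overlapped with wild type, the 2 lines overlapped with each other, and wild type replicate 2 lay well below the other wild type arrays. It differed from wild type by 6.18 ± 0.50 (SE) in MYB106SRDX, a 72.4-fold higher level, and 6.57 ± 0.50 in WIN1SRDX, a 94.9-fold higher level, and the lines differed by -0.39 ± 0.50 (MYB106SRDX minus WIN1SRDX). Under normexp it differed from wild type by 5.20 in MYB106SRDX and 5.61 in WIN1SRDX. Its rank from the highest difference was 76 in MYB106SRDX and 18 in WIN1SRDX. The processed intensity was 2662 to 7051 in MYB106SRDX, 3517 to 10908 in WIN1SRDX and 24.4 to 107 in wild type.

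MSRB7, which lies next to MSRB8 on chromosome 4, was also higher in both lines, but unlike MSRB8 it was higher in WIN1SRDX than in MYB106SRDX. Its level was -3.00, -2.46, -2.88 and -3.05 on MYB106SRDX replicates 1 to 4, -0.72, -1.52, -1.96 and 0.17 on WIN1SRDX replicates 1 to 4, and -5.33, -6.56, -5.27 and -5.40 on wild type replicates 1 to 4. The 3 groups did not overlap, and wild type replicate 2 was again the lowest array. The difference from wild type was 2.79 ± 0.44 in MYB106SRDX and 4.63 ± 0.44 in WIN1SRDX, 6.93-fold and 24.8-fold higher, and the lines differed by -1.84 ± 0.44 (MYB106SRDX minus WIN1SRDX). Normexp correction gave 1.74 and 3.15 for the differences from wild type of MYB106SRDX and WIN1SRDX.

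MSRB9, the next gene in the same stretch, was less uniform. It lay at 3.39, 2.63, 2.10 and 4.35 on MYB106SRDX replicates 1 to 4, at 4.15, 3.37, 3.67 and 4.26 on WIN1SRDX replicates 1 to 4 and at 2.46, 1.54, 2.75 and 2.18 on wild type replicates 1 to 4. All WIN1SRDX arrays were above all wild type arrays, and MYB106SRDX overlapped with both. Against wild type it differed by 0.89 ± 0.44 in MYB106SRDX and 1.63 ± 0.44 in WIN1SRDX. Without MYB106SRDX replicate 4 the difference in MYB106SRDX was 0.48. Within 1 array slide the MYB106SRDX difference was -0.39, against 2.16 and 1.39 within the other slides.

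**Figure D1:**
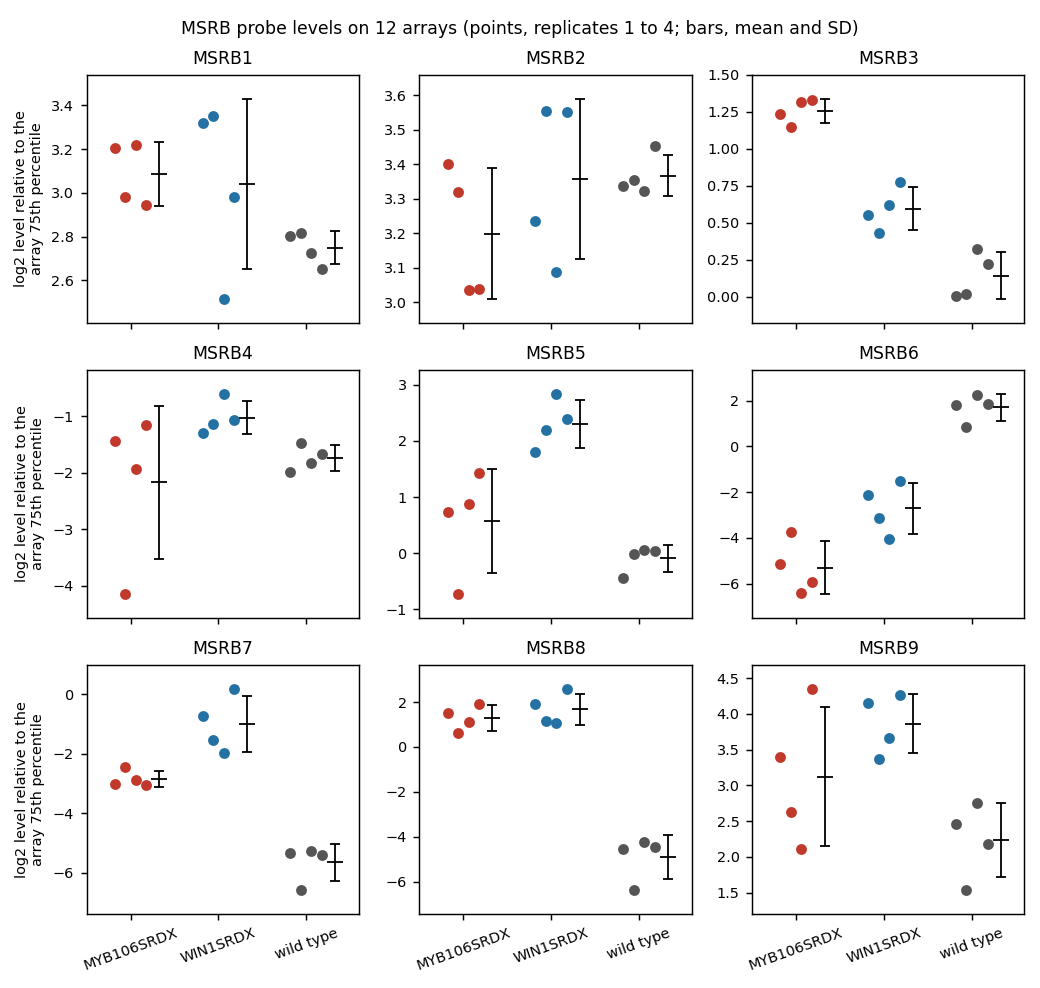
The percentile-scaled log2 level of each member is plotted for MYB106SRDX, WIN1SRDX and wild type, with 1 point an array and the mean and SD beside it (vertical axes differ between panels). The MSRB6 points of both lines lie under the wild type points, and the MSRB7 and MSRB8 points of both lines lie over them.

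In the other stretch of family genes on chromosome 4, MSRB5 separated the lines. Its level was 0.73, -0.73, 0.88 and 1.44 on MYB106SRDX replicates 1 to 4, 1.79, 2.20, 2.84 and 2.38 on WIN1SRDX replicates 1 to 4, and -0.44, -0.02, 0.06 and 0.04 on wild type replicates 1 to 4. The WIN1SRDX arrays were above all others, and MYB106SRDX overlapped with wild type through replicate 2. Against wild type it differed by 0.67 ± 0.40 in MYB106SRDX and 2.39 ± 0.40 in WIN1SRDX, a 5.25-fold higher level, and the lines differed by -1.72 ± 0.40 (MYB106SRDX minus WIN1SRDX). The difference in MYB106SRDX was 1.10 without MYB106SRDX replicate 2 and 0.38 without MYB106SRDX replicate 4.

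For MSRB4 the same array stood apart. It lay at -1.44, -4.14, -1.93 and -1.16 on MYB106SRDX replicates 1 to 4, at -1.30, -1.14, -0.61 and -1.07 on WIN1SRDX replicates 1 to 4 and at -1.99, -1.47, -1.82 and -1.67 on wild type replicates 1 to 4. Replicate 2 of MYB106SRDX was the lowest of all 12 arrays, and the WIN1SRDX arrays did not overlap with wild type. The difference from wild type was -0.43 ± 0.53 in MYB106SRDX and 0.71 ± 0.53 in WIN1SRDX. The MYB106SRDX difference was 0.23 without MYB106SRDX replicate 2, -0.67 without replicate 1, -0.76 without replicate 4 and -0.19 under normexp.

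MSRB3, the secretory pathway member, had closely grouped values and was the only member higher in MYB106SRDX than in WIN1SRDX with no overlap. Its level was 1.24, 1.15, 1.32 and 1.33 on MYB106SRDX replicates 1 to 4, 0.55, 0.43, 0.62 and 0.78 on WIN1SRDX replicates 1 to 4, and 0.01, 0.02, 0.33 and 0.22 on wild type replicates 1 to 4. MYB106SRDX was the highest group, WIN1SRDX the next and wild type the lowest, without overlap. It differed from wild type by 1.11 ± 0.11 in MYB106SRDX and 0.45 ± 0.11 in WIN1SRDX.

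The plastid members differed less. MSRB1, the sole member on chromosome 1, lay at 2.94 to 3.22 in MYB106SRDX, 2.52 to 3.35 in WIN1SRDX and 2.65 to 2.82 in wild type, with differences from wild type of 0.34 ± 0.17 in MYB106SRDX and 0.29 ± 0.17 in WIN1SRDX. Its MYB106SRDX arrays did not overlap with wild type. WIN1SRDX replicate 3 was the lowest of the 12 arrays for MSRB1, and the WIN1SRDX difference was 0.47 without it and 0.19 without WIN1SRDX replicate 2. MSRB2 lay at 3.04 to 3.40 in MYB106SRDX, 3.09 to 3.55 in WIN1SRDX and 3.32 to 3.45 in wild type. Its differences were -0.17 ± 0.13 in MYB106SRDX and -0.01 ± 0.13 in WIN1SRDX, and the groups overlapped.

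**Figure D2:**
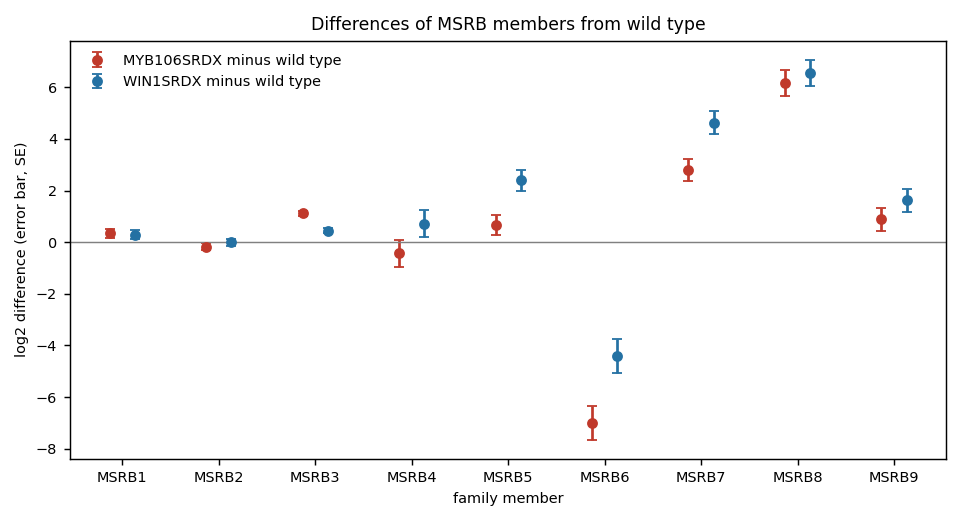
The log2 difference from wild type of each member, with its SE, is plotted for MYB106SRDX and WIN1SRDX. MSRB6 is at -7.00 in MYB106SRDX and -4.41 in WIN1SRDX, MSRB8 is at 6.18 in MYB106SRDX and 6.57 in WIN1SRDX, and MSRB2 is near 0 in both lines.

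Counted over the family, 4 of 9 members passed adjusted p under 0.05 in MYB106SRDX against wild type, 3 higher (MSRB3, MSRB7 and MSRB8) and 1 lower (MSRB6), where 52.2% of all loci tested passed, 23.6% higher and 28.6% lower. In WIN1SRDX 6 members passed, 5 higher (MSRB3, MSRB5, MSRB7, MSRB8 and MSRB9) and MSRB6 lower, where 32.6% of all loci passed, 17.4% higher and 15.2% lower. Between the lines 4 passed, MSRB3 higher in MYB106SRDX and MSRB5, MSRB6 and MSRB7 lower, where 42.6% of all loci passed, 18.3% higher and 24.2% lower. Leaving out 1 array at a time gave 4 to 5 members in MYB106SRDX and 5 to 7 in WIN1SRDX, each against wild type, and 4 to 6 between the lines. Between the lines, MSRB4 and MSRB9 joined without MYB106SRDX replicate 4. Because these contrasts chose the family, nothing is read from those counts. For 5 members, 4 higher and 1 lower, no MYB106SRDX array overlapped with wild type, as for 52.7% of all loci (24.3% higher and 28.3% lower). In WIN1SRDX this held for 7 members, 6 higher and 1 lower, as for 43.0% of all loci (22.0% higher and 21.0% lower). Set against WIN1SRDX, the MYB106SRDX arrays did not overlap for 3 members, 1 higher and 2 lower, as for 34.7% of all loci (15.0% higher and 19.7% lower). The median member difference was 0.67 in MYB106SRDX and 0.71 in WIN1SRDX, beside medians over all tested loci of -0.05 and 0.00. With the authors' value table in place of percentile scaling, 66.5% of all calls in WIN1SRDX were higher, against 53.4% with percentile scaling, and between the lines 25.6% against 43.1%; all members named as passing kept their direction under that table. The comparisons share the wild type arrays, so the values of the lines are not independent of each other.

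The arrays were held on 3 slides, each with all 3 groups, so each member could be compared within a slide. Each slide held only 1 or 2 arrays of a group. MSRB6 differed by -7.78, -7.33 and -6.49 within slides 1, 2 and 3 in MYB106SRDX, and by -4.63, -5.39 and -3.48 in WIN1SRDX. MSRB8 differed by 6.36, 5.10 and 6.94 in MYB106SRDX and by 6.26, 5.40 and 7.35 in WIN1SRDX. MSRB7 differed by 2.36, 2.60 and 2.94 in MYB106SRDX and by 4.51, 3.75 and 5.22 in WIN1SRDX. No array of either line overlapped with wild type for these members, so the sign within a slide could not differ and only the sizes are informative. Other members were less even: MSRB4 in MYB106SRDX was at 0.50, -1.21 and 0.29 and MSRB5 at 1.40, 0.02 and 0.96. MSRB3 in WIN1SRDX was at 0.48, 0.10 and 0.54.

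**Figure D3:**
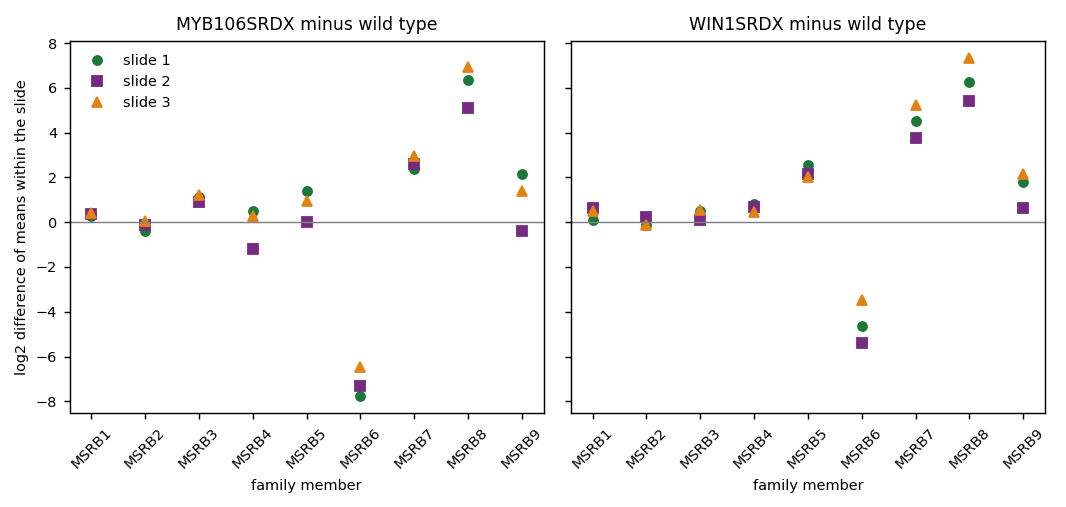
The log2 difference of group means within each slide is plotted for each member, MYB106SRDX minus wild type on the left and WIN1SRDX minus wild type on the right. MSRB6 is below 0 and MSRB7 and MSRB8 are above 0 on slides 1, 2 and 3, while MSRB4 and MSRB9 in MYB106SRDX change sign on slide 2. MSRB2 also changes sign between slides, in MYB106SRDX (-0.41, -0.14 and 0.05 on slides 1, 2 and 3) and in WIN1SRDX (-0.13, 0.23 and -0.11).

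Genes of the family lie beside each other on chromosome 4 in the RefSeq gene order: MSRB3, MSRB4, MSRB5 and MSRB6 in one stretch and MSRB7, MSRB8, MSRB9 and MSRB2 in another. Adjacent members could differ in opposite directions, as MSRB5 and MSRB6 did in WIN1SRDX (2.39 and -4.41), and MSRB2 stayed near 0 beside MSRB9. Family genes are similar in sequence, and cross-binding between probes was not tested because probe sequences were not used here. After the group means were removed, the levels of MSRB4 and MSRB5 followed each other over the 12 arrays (r = 0.93), as did MSRB6 and MSRB7 (r = 0.82) and MSRB8 and MSRB9 (r = 0.75). MSRB5 and MSRB6 ran opposite ways (r = -0.70). Single arrays weigh on these values, and r was not computed without them. MYB106SRDX replicate 2 was the lowest of its group for MSRB4 (-4.14) and MSRB5 (-0.73). Wild type replicate 2 was the lowest wild type array for MSRB6, MSRB7, MSRB8 and MSRB9. Over the 36 pairs of members r had a median of 0.24, and the values are a description over arrays that share groups and slides.

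The genes next to the family differed less than MSRB6 and MSRB8, but the family was chosen by the extreme differences of those members. That contrast is therefore a description only. The neighbour AT4G21870 differed by -3.02 in MYB106SRDX, a larger size than that of MSRB7 at 2.79. With 3 neighbours on each side of each stretch, 11 of 12 were tested. In MYB106SRDX against wild type 1 rose and 4 fell, between -3.02 for AT4G21870 and 0.97 for AT4G04790. In WIN1SRDX 3 rose and 2 fell, between -1.61 for ABCI8 and 0.82 for AT4G04790. Over all loci 52.2% passed in MYB106SRDX and 32.6% in WIN1SRDX. Among these the rise of QQT2 in WIN1SRDX was lost under 12 of 21 alternatives, 9 of which left out 1 array (MYB106SRDX replicate 1 or 3, WIN1SRDX replicate 1, 2 or 3, or any single wild type array), and the fall of DER2.2 in MYB106SRDX was lost without MYB106SRDX replicate 4 or wild type replicate 1 or 2. The median size of their difference was 0.43 in MYB106SRDX and 0.41 in WIN1SRDX, beside 0.54 and 0.40 over all tested loci. The gene on the side of MSRB6, KEA3, a potassium/proton exchanger of the thylakoid, differed by 0.31 ± 0.18 in MYB106SRDX and 0.68 ± 0.18 in WIN1SRDX (limma, adjusted p = 0.183 and 0.0159). AT4G21820, beside MSRB7, fell by 1.73 on the log2 scale in MYB106SRDX (limma, adjusted p = 0.00268) and differed by 0.22 in WIN1SRDX (limma, adjusted p = 0.669).

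**Figure D4:**
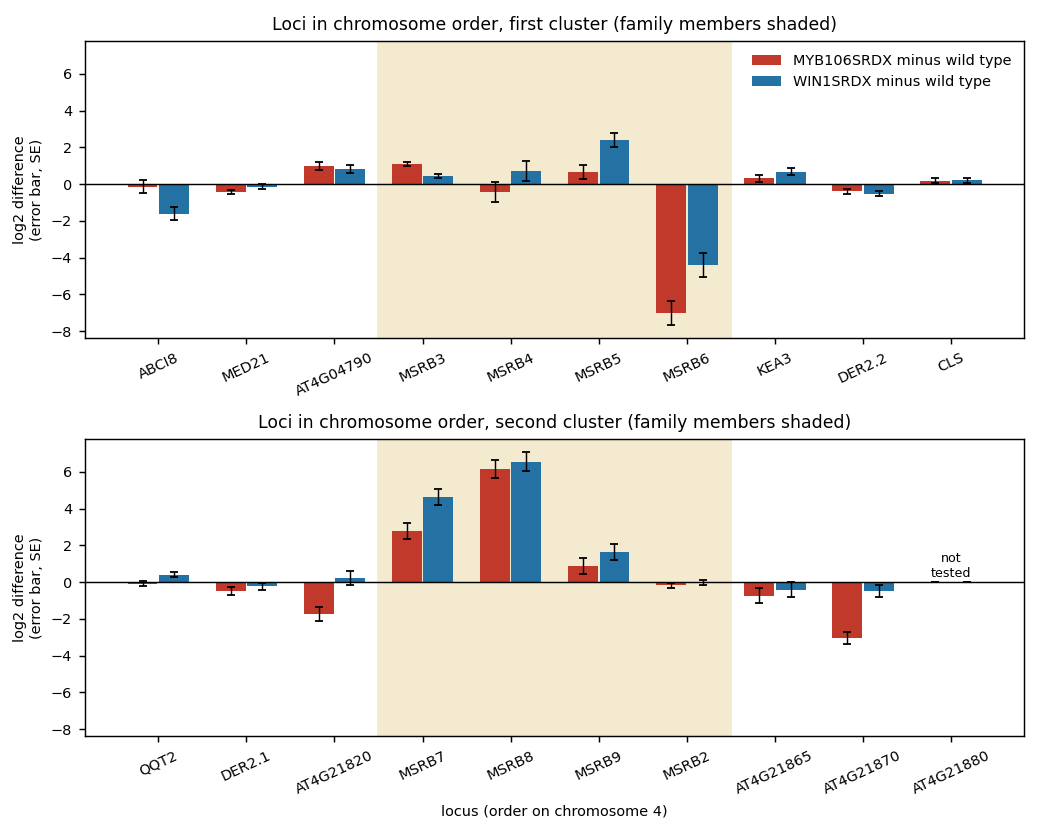
The log2 difference from wild type, with its SE, is plotted for the family members (shaded) and the 3 nearest loci with a probe on each side, in chromosome order, MYB106SRDX left of WIN1SRDX at each locus. The bars of MSRB6 at -7.00 and -4.41 and of MSRB8 at 6.18 and 6.57 are longer than those of every tested neighbour. The family was chosen by the differences of MSRB6 and MSRB8. In MYB106SRDX the bar of AT4G21870 at -3.02 is longer than that of MSRB7 at 2.79. AT4G21880 was not tested.

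The loci whose pattern over the 12 arrays was most like MSRB6, among 8714 named loci well above background on at least 8 arrays, were ABCG2, an ABC transporter (r = 0.98), BXL2, a beta-xylosidase of the cell wall (r = 0.97), iqd2, Cand1 and RABG3d (r = 0.97 each). ABCG2 was at -4.73 to -3.91 in MYB106SRDX, -3.08 to -2.24 in WIN1SRDX and -1.28 to -0.61 in wild type, and BXL2 at -1.69 to 0.05, -0.33 to 1.62 and 3.36 to 3.39 in the same groups. Those most like MSRB8 were SUP (r = 0.98), PLP5, a patatin-like protein (r = 0.97), the endoplasmic reticulum chaperones CNX1 and BIP2 (r = 0.97 each) and 4CL1, a 4-coumarate:CoA ligase (r = 0.97). On the wild type arrays neither SUP nor PLP5 was well above background, so both met the limit of 8 arrays only through the lines. SUP encodes SUPERMAN, the protein from which the SRDX domain derives, and its probe lay at 3.59 to 5.46 in MYB106SRDX and 5.93 to 6.37 in WIN1SRDX. CNX1 was at 3.67 to 3.70 in MYB106SRDX, 3.25 to 3.83 in WIN1SRDX and 2.23 to 2.60 in wild type. Of the other members, MSRB7 (r = 0.92) was the one most like MSRB8. Group means were not removed from the r values of this paragraph. They therefore carry the differences between groups by which MSRB6 and MSRB8 were chosen, and are a description only.

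The MSRA enzymes, which repair the S form, all lay between -0.76 and 0.51 in their difference from wild type. Of 5 MSRA genes, 3 rose and 1 fell in MYB106SRDX, and none passed in WIN1SRDX (limma; 2 had an unadjusted p under 0.05), beside 52.2% of all loci called in MYB106SRDX and 32.6% in WIN1SRDX. The median difference was 0.45 in MYB106SRDX and 0.15 in WIN1SRDX. PMSR3, a cytosolic MSRA, rose by 0.45 ± 0.10 in MYB106SRDX (limma, adjusted p = 0.00350) and differed by 0.10 in WIN1SRDX. The plastid enzyme PMSR4 rose by 0.50 ± 0.15 in MYB106SRDX, with a wild type mean that rests on 2 arrays because the spots of the other 2 were marked as outliers; its call was lost without wild type replicate 2 and without wild type replicate 3, the arrays it rests on. PMSR1 rose by 0.51 ± 0.19, a call at adjusted p = 0.0425 (limma) that was lost under 13 of 21 alternatives, among them those without MYB106SRDX replicate 1, 2 or 3, WIN1SRDX replicate 1 or any single wild type array. MSRA5 fell by 0.45 ± 0.11 on the log2 scale in MYB106SRDX (limma, adjusted p = 0.00513), and PMSR2 differed by -0.76 ± 0.30 (limma, adjusted p = 0.0539). PMSR2 passed without MYB106SRDX replicate 4 or WIN1SRDX replicate 2 or 4, and MSRA5 passed in WIN1SRDX, at -0.29, without MYB106SRDX replicate 2 or 4.

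Thioredoxins and their reductases, which recycle oxidised MSR enzymes, went both ways. Of 23 tested, 5 rose and 7 fell in MYB106SRDX, and 5 rose and 2 fell in WIN1SRDX, with medians of 0.08 and 0.01 in MYB106SRDX and WIN1SRDX. The shares called over all loci, 52.2% in MYB106SRDX and 32.6% in WIN1SRDX, are close to those of this list. Without wild type replicate 1 or 2, 4 fell in MYB106SRDX; in WIN1SRDX 5 fell without MYB106SRDX replicate 1 and 4 without MYB106SRDX replicate 2. TH8, an h-type thioredoxin, was the largest change of the list: it lay at 2.28 to 4.70 in MYB106SRDX, 0.33 to 2.40 in WIN1SRDX and -2.26 to -0.52 in wild type. It rose by 4.81 ± 0.60 in MYB106SRDX (limma, adjusted p = 9.36e-05) and by 2.42 ± 0.60 in WIN1SRDX (limma, adjusted p = 0.0111), and its arrays did not overlap with wild type in either line. ATTRX4, another h-type thioredoxin, fell by 0.91 and 0.72 on the log2 scale in MYB106SRDX and WIN1SRDX (limma, adjusted p = 0.000159 and 0.00175). TH9 rose by 0.85 ± 0.12 and the plastid ty2 by 1.04 ± 0.15 in MYB106SRDX (limma, adjusted p = 0.000272 and 0.000273), with -0.34 and 0.30 in WIN1SRDX, where neither passed.

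Of 8 glutaredoxins and glutathione reductases, 4 rose in MYB106SRDX and 2 in WIN1SRDX, with medians of 0.37 and 0.22, beside 52.2% of all loci called in MYB106SRDX (23.6% higher) and 32.6% in WIN1SRDX (17.4% higher). Without WIN1SRDX replicate 2 or 4 or wild type replicate 1 or 4, 1 rose in WIN1SRDX. GR1, the cytosolic glutathione reductase, was at 3.49 to 4.48 in MYB106SRDX, 3.46 to 3.70 in WIN1SRDX and 1.88 to 2.06 in wild type, without overlap of either line with wild type. It rose by 1.91 ± 0.18 in MYB106SRDX (limma, adjusted p = 1.68e-05) and by 1.64 ± 0.18 in WIN1SRDX (limma, adjusted p = 0.000176). CXIP2, GRXC1 and GRXC2, glutaredoxins, rose by 0.43, 0.73 and 0.72 in MYB106SRDX (limma, adjusted p = 0.00126, 0.00244 and 0.00391), with -0.10, 0.09 and 0.17 in WIN1SRDX, where none passed.

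Of 17 scavengers of peroxide and superoxide 16 were tested (APX2 was not), and 6 rose and 1 fell in MYB106SRDX while 4 rose and 2 fell in WIN1SRDX. Those counts stand beside 52.2% and 32.6% of all loci called in MYB106SRDX and WIN1SRDX. The medians were 0.15 in MYB106SRDX and -0.20 in WIN1SRDX. In MYB106SRDX 4 rose without MYB106SRDX replicate 3 or wild type replicate 1, 3 or 4. There 5 rose without MYB106SRDX replicate 1, 2 or 4, WIN1SRDX replicate 4 or wild type replicate 2. In WIN1SRDX 1 fell without WIN1SRDX replicate 1 or 4 or any single wild type array. The superoxide dismutases CSD1 and CSD2, of cytosol and plastid, rose by 1.60 and 1.05 in MYB106SRDX (limma, adjusted p = 0.00229 and 0.0253) and by 2.02 and 1.83 in WIN1SRDX (limma, adjusted p = 0.00138 and 0.00285). The CSD2 call in MYB106SRDX was lost without MYB106SRDX replicate 3 or 4 or wild type replicate 1, 3 or 4. FSD3, an iron form of the plastid, and MSD1, the manganese form of mitochondria, rose in both lines: FSD3 by 1.00 and 0.86 and MSD1 by 0.53 and 0.57 in MYB106SRDX and WIN1SRDX. CSD3, the peroxisomal form, fell by 0.48 and 0.51 on the log2 scale in MYB106SRDX and WIN1SRDX (limma, adjusted p = 0.00548 and 0.00757; the WIN1SRDX call was lost under the authors' table), and it was singled out after its values were seen.

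**Figure D5:**
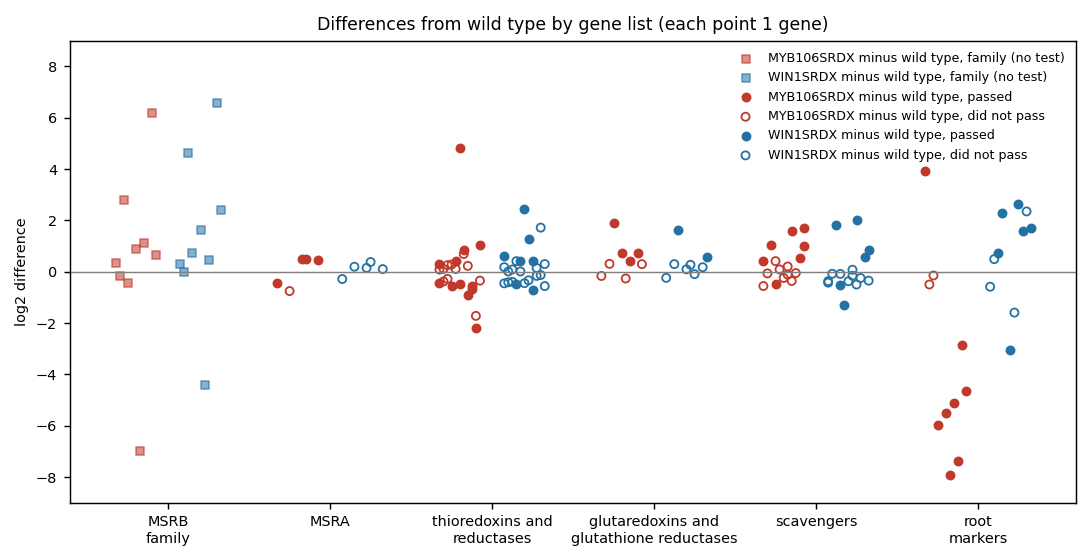
The log2 difference from wild type of each gene is plotted by list, MYB106SRDX left of WIN1SRDX, with the family as squares (no test) and other genes as filled points where they passed adjusted p under 0.05 and open points where they did not. Family values run from -7.00 to 6.57, a range set by MSRB6 and MSRB8, by whose differences the family was chosen. Every MSRA gene lies between -0.76 and 0.51, and so do MSRB1 and MSRB2 in both lines. The ranges are therefore a description only.

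Marker genes of plant organs differed between the groups. Of 10 root markers, 7 fell and 1 rose in MYB106SRDX, with a median of -4.89 (-4.36 with genes above background on no MYB106SRDX array at their bound), and 5 rose and 1 fell in WIN1SRDX, with a median of 1.15, beside 52.2% of all loci called in MYB106SRDX and 32.6% in WIN1SRDX. Their summed level, on the linear scale, was 3.06 to 4.70 in MYB106SRDX, 7.99 to 15.9 in WIN1SRDX and 6.50 to 7.57 in wild type. The sum weighs bright probes most. In MYB106SRDX most of it came from PHT1;1 and SCR (mean levels 0.93 and 0.56), and neither passed against wild type. SHV2 and EXPA18, of root hairs, were well above background on no MYB106SRDX array, at least 43.4-fold and 16.7-fold lower than in wild type, taking the dimmest spot well above background on each array as the limit. IRT1, the root iron transporter, fell in both lines (-5.51 in MYB106SRDX and -3.04 in WIN1SRDX). CASP1, of the root endodermis, fell in MYB106SRDX (-7.90) and differed by -1.59 in WIN1SRDX, where it did not pass. IRT1 was the 1 root marker that fell in WIN1SRDX. The 5 that rose there were SHV2 (1.58), EXPA7 (2.64), EXPA18 (2.30), RHD6 (1.72) and SCR (0.72). The 1 that rose in MYB106SRDX was NRT2:1 (3.92), which was well above background on 2 of 4 wild type arrays. In MYB106SRDX, CASP1 and EXPA7 were well above background on 2 of 4 arrays, and IRT1, RHD6 and PRP3 on 1 each. The sizes of their falls therefore include readings at the background limit, and so do the medians of -4.89 and -4.36. Under normexp the median of the root markers in MYB106SRDX was -1.80, with 6 that fell, and when tests were limited to loci well above background on all 12 arrays, 2 root markers were tested, with a median of -0.32, and neither passed (limma). Of 8 leaf markers 2 fell in MYB106SRDX and none passed in WIN1SRDX (limma; 0 had an unadjusted p under 0.05), with summed levels of 627 to 906 in MYB106SRDX, 692 to 953 in WIN1SRDX and 844 to 960 in wild type. Of 3 flower markers tested (AG was not) 2 rose in MYB106SRDX and none passed in WIN1SRDX (limma; 1 had an unadjusted p under 0.05), and the summed level of all 4 was 3.29 to 16.0 in MYB106SRDX, 0.474 to 8.76 in WIN1SRDX and 0.247 to 1.12 in wild type. The part of these tissue markers in the differences of the family was not tested.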

How the data were processed

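The samples were total RNA of whole seedlings, labelled with Cy3 and hybridised to 1-colour Agilent arrays. The submitters' processing notes name Agilent Feature Extraction 9.1.3.1, and the deposited scanner files give a processed intensity for each spot, already corrected for background, and, per the file headers, flags for outlying spots, saturation and signal well above background. The authors' value table holds each processed intensity as a ratio to a constant of its group (1083 for MYB106SRDX, 996 for WIN1SRDX and 1264 for wild type). These constants were found here by setting the table against the scanner intensities, where 100% of probes lay within 1% on every array. The table is linear and not centred, and its column medians were 0.0598 to 0.0758 for MYB106SRDX, 0.0867 to 0.137 for WIN1SRDX and 0.0966 to 0.109 for wild type; the reason for a constant per group is not stated in the sources.

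Each processed intensity was divided by its array's 75th percentile over 37685 non-control spots and converted to log2. Control spots and marked outlier spots were left out. Of 37478 probes, 26236 name a locus, and the probe with the highest mean stood for each of the 25665 loci. Tests were limited to the 20267 loci for which some group had all 4 arrays well above background. Names and gene order come from a RefSeq table (TAIR10.1) that matched 25449 loci. The test was limma 3.58.1 in R 4.3.3, with all 12 arrays in 1 fit, 9 residual degrees of freedom and Benjamini-Hochberg adjustment over all tested loci; a gene passed at adjusted p under 0.05. The fit was tested on simulated data with 50 loci at each of 4 true log2 changes in MYB106SRDX. Of loci changed by -4, -2, 2 and 4, it called 94%, 78%, 92% and 96%. Among 20020 loci it also called 11 unchanged ones. So few changed loci differ from the real arrays, where 52.2% of loci passed in MYB106SRDX, so the simulation did not test the scaling in that setting. The number of arrays limits the precision.

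The members and lists were chosen with earlier results of these data known. Named were all members, all MSRA genes, the 4 genes of each other list with the lowest p among those that passed, the 3 nearest loci on each side of each chromosome 4 stretch, and the 5 loci most like MSRB6 and MSRB8; CSD3 was added after its values were seen. For each comparison 21 alternatives were run: normexp (offset 50), quantile normalization, no filter, a stricter filter, the mean of the probes, slide or replicate number as a block, only the groups compared, the authors' table, and 12 fits that each leave out 1 array. Normexp used the median spot signal, because the files analysed here have no mean signal column. Sequences were not used here, so the planned search for promoter motifs was not run.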

Additional observations from a re-analysis of the deposited data

Results flagged for a closer look

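In 113 sets of 4 arrays, for the members and the named genes outside the family, 8 had an array whose gap to the nearest other array, as a share of the range, passed Dixon's limit, where chance gives about 1 in 20 sets. Of the family, wild type replicate 2 was the lowest wild type array for both MSRB7, at -6.56 where the others lay at -5.40 to -5.27, and MSRB8, at -6.35 where the others lay at -4.54 to -4.24. Wild type replicate 1 was the lowest for MSRB5, at -0.44, where the others lay at -0.02 to 0.06.

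Outside the family, wild type replicate 1 was the highest for TH9, at 1.26 (others 0.91 to 0.92), and for CSD1, at 0.52 (others 0.14 to 0.18). Wild type replicate 3 was the highest for PMSR1, at 0.16 (others 0.07 to 0.08), and WIN1SRDX replicate 4 for CXIP2, at 1.97 (others 1.83 to 1.85). Among the chromosome neighbours, WIN1SRDX replicate 3 was the lowest for AT4G21870, at 1.07 (others 1.57 to 1.65).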

How the results depend on the processing

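The counts of genes past the threshold stayed within 1.5 times the reported 10587 for MYB106SRDX against wild type, 6606 for WIN1SRDX against wild type and 8629 for MYB106SRDX against WIN1SRDX, under all 21 alternatives. Over all loci, replicate numbers gave little sign of pairing: over 12 same-numbered pairs the deviations from the group means correlated between -0.16 and 0.20, with 1 pair over 0.1. Such correlations cannot show that samples were unpaired. In MYB106SRDX against wild type the replicate block lowered the SE of MSRB8 from 0.50 to 0.31 and raised that of MSRB6 from 0.64 to 0.69. With the replicate block 10035, 5851 and 8003 genes passed. Under the authors' table the median difference of all genes was 0.12 for WIN1SRDX against wild type and -0.20 for MYB106SRDX against WIN1SRDX. With percentile scaling these medians were 0.00 and -0.03.

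Of 567 values for members, 562 moved by less than 1 SD, but many of them could not move. Each member had 1 probe and passed every filter. A replicate block, or leaving out the group not compared or 1 of its arrays, also leaves a difference of group means as it was. Since these arrays chose the family, the count of 562 is a description and no support. MSRB9 in WIN1SRDX was no longer past the threshold without wild type replicate 2, while in MYB106SRDX MSRB9 passed without MYB106SRDX replicate 3, MSRB5 without MYB106SRDX replicate 2 and MSRB1 without WIN1SRDX replicate 3. In WIN1SRDX MSRB1 passed without WIN1SRDX replicate 3 and under the authors' table, and MSRB4 without MYB106SRDX replicate 2. With only the groups compared in the fit, MSRB1 passed in MYB106SRDX and MSRB4 in WIN1SRDX. Outside the family 39 of 1218 values lost the threshold and 15 passed it. Those that changed sign were CXIP2 in WIN1SRDX under the authors' table (0.025) and GRXC1 in WIN1SRDX without WIN1SRDX replicate 3 (-0.0051, with fits that leave out 1 array ranging up to 0.18), ABCI8 in MYB106SRDX without MYB106SRDX replicate 4 (0.25, with fits that leave out 1 array ranging down to -0.34) and AT4G21865 in MYB106SRDX under normexp (0.024), none past the threshold; the cause was not tested. Differences between the lines for genes outside the family are not reported and were not recomputed. Dim signals limit MSRB6 in MYB106SRDX and MSRB7 and MSRB8 in wild type.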
